A study of Mus musculus with 4 samples.

Results

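The 10 genes described here encode the mouse MHC class II antigen-presentation set: the classical chains H2-Aa, H2-Ab1 and H2-Eb1, the invariant chain Cd74, the peptide editor H2-DM (H2-DMa, H2-DMb1 and H2-DMb2), its modulator H2-DO (H2-Oa and H2-Ob), and their transcriptional coactivator Ciita. They were taken by name from the 55401 gene rows of an RNA-seq count table of bone marrow-derived macrophages, that is, macrophages derived from marrow in a dish. All cells were of C57BL/6J genotype and were infected with a CRISPR-Cas9 lentivirus on day 1 (multiplicity of infection 30), and differentiation took 5 days. In 2 Adcy7 knockout libraries the virus targeted Adcy7, the gene of an adenylyl cyclase, which makes cyclic AMP. In 2 Rosa control libraries it targeted the Rosa locus, a common neutral target, so control cells also received the virus and the nuclease. All libraries carry the same batch number. Whether the libraries of a group stem from separate animals or dishes is not labelled. The p-values thus reflect the spread among these libraries alone, which may be technical. The share of edited cells is not given in the sources used here.

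Class II molecules are surface pairs of an alpha and a beta chain that show peptides from the endosome to CD4+ T cells. The invariant chain fills the peptide groove of a new pair and guides it to the endosome, where proteases trim it to a short remnant called CLIP. H2-DM, itself an alpha and beta pair, swaps CLIP for other peptides, and H2-DO holds H2-DM back. Ciita binds no DNA. It docks on the factors RFX, CREB and NF-Y, which sit on a shared module of the class II promoters. In macrophages the classical chains and Cd74 are low at rest and are induced through Ciita by interferon gamma. B cells and dendritic cells express them constitutively.

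The promoters are shown because the module on which Ciita acts can be read in them, in genes that rose and in genes that fell. In RefSeq's promoter table (GRCm38.p6), windows were found for 7 of the 10 genes. H2-Ab1 and Ciita had no entry. Cd74 was left out of this search, so whether it has an entry was not tested. The gene counts below do not cover it. In 6 of the 7, the 250 bases before a start site held AAC, then 24 to 27 bases of any kind, then GATTGG, on either strand. AAC is part of the core of the X box, bound by RFX, and GATTGG is the Y box, bound by NF-Y, which reads CCAAT on its other strand. This motif was spelled out after these windows had been looked at. Across all entries, 0.77% of 32851 windows held the pair, and GATTGG alone was in 14.6%. Of the 6 genes with the pair, 4 rose in the knockout (H2-Aa, H2-Eb1, H2-DMb2 and H2-Oa) and 2 fell (H2-DMb1 and H2-Ob). The calls of H2-DMb2 and H2-Ob did not hold in every setting, and the separate levels of H2-DMb1 and H2-DMb2 are uncertain, as given below. H2-DMa has 2 start sites in the table, neither with the pair at this spacing. GATTGG, on either strand, was found in windows of all 7 genes, H2-DMa included. A match describes letters in the window, not a bound site, and the window of H2-DMb1 is not printed. The windows run 5′ to 3′ on the gene's strand, with 6 bases of the X box core, ending in AAC, and the Y box in capitals.
H2-Aa, rose, chr17:34287857-34287915, minus strand: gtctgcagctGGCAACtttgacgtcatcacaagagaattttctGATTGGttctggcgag
H2-Eb1, rose, chr17:34305765-34305822, plus strand: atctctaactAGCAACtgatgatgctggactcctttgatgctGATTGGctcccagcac
H2-DMb2, rose, chr17:34145115-34145173, plus strand: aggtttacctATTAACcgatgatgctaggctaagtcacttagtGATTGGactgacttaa
H2-Oa, rose, chr17:34092292-34092350, plus strand: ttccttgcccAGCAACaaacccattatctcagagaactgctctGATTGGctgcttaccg
H2-Ob, fell, chr17:34238807-34238862, plus strand: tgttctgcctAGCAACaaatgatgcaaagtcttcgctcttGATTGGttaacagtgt
The stretch between the capitals was 27 bases long in H2-Aa, H2-DMb2 and H2-Oa, 26 in H2-Eb1 and 24 in H2-Ob. The Y box ended 43 bases before the start site in H2-Aa, 54 in H2-Eb1, 85 in H2-DMb2, 38 in H2-Oa and 52 in H2-Ob.

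The libraries held 61782358 to 71914179 estimated counts, and 18641 to 19697 genes had a count. Adcy7 mRNA was at 59.4 and 58.8 CPM (counts scaled to an equal library total) in the knockout libraries, against 122 and 125 CPM in the Rosa libraries, or 48.4% of the control level in the fit (adjusted p = 4.6e-06, quasi-likelihood test of edgeR, Benjamini-Hochberg over all tested genes, used throughout). A gene is said to have risen or fallen where that adjusted p was under 0.05. Of 15832 tested genes 7848 passed, which is 49.6%, with 25.0% higher and 24.6% lower in the knockout. The counts for every list below are to be read against these shares. Macrophage genes such as Adgre1 (876 CPM in the knockout, against 1456 CPM in the control) and Csf1r (1237 CPM, against 1809 CPM) were abundant in both groups, though both fell, while Mertk (0.317 CPM in the knockout, against 17.5 CPM in the control) and C1qb (0.276 CPM, against 418 CPM) were near 0 in the knockout.

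All 10 genes had counts in every library and entered the test, and all 10 passed it, 7 higher and 3 lower in the knockout. In all 10 the knockout and the control libraries did not overlap, which was so for 75.2% of all tested genes, 37.4% with the knockout higher and 37.8% with it lower. Since about as many genes passed as did not, the count alone says little, and the sizes and directions are the result. The genes' median log2 fold change (knockout over Rosa) was 1.03, with a range of -1.75 to 1.56, against a median of 0.01 over all tested genes. Summed over the 10 genes, the level was 664 and 597 CPM in the knockout libraries, against 465 and 425 CPM in the Rosa libraries. In bulk RNA, a change in the number of cells that express a gene and a change in its RNA per cell cannot be told apart. In the same libraries 10 of 13 tested B cell markers rose (median log2 fold change 3.22), 6 of 12 dendritic cell markers rose while 4 fell (1.36), and 10 of 12 macrophage markers fell (-2.35). Their part in the class II values was not tested.

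**Figure D1:**
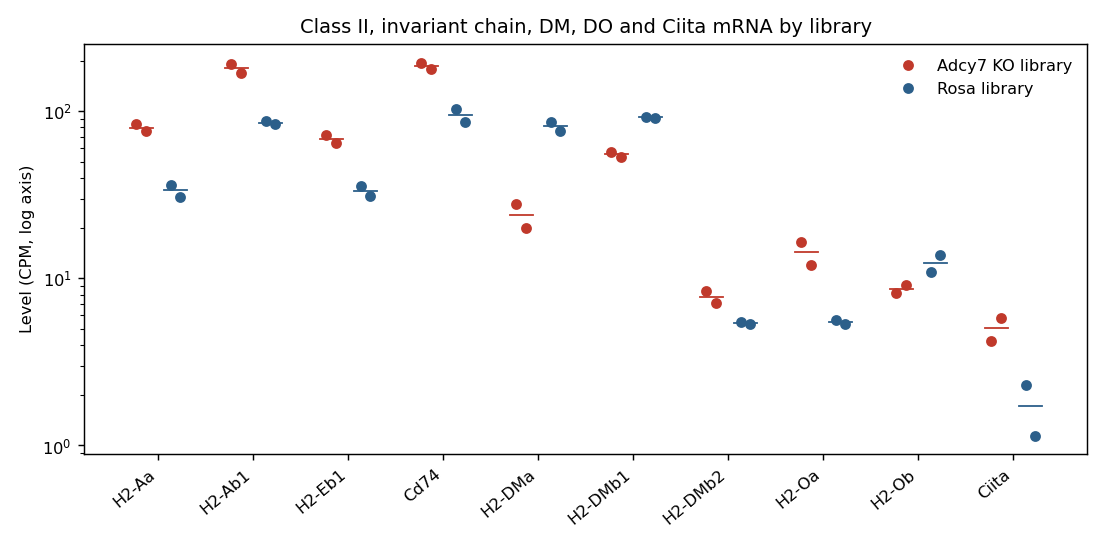
Level of each of the 10 genes in CPM on a log axis, with a point for each library and a line at the group mean (n = 2 each; Adcy7 knockout left of Rosa). The 3 classical chains, Cd74, H2-DMb2, H2-Oa and Ciita lie higher in the knockout, while H2-DMa, H2-DMb1 and H2-Ob lie lower.

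The classical chains belong to the peptide-presenting molecules I-A (H2-Aa with H2-Ab1) and I-E, whose beta chain is H2-Eb1. The I-E alpha chain gene, H2-Ea-ps, is broken in C57BL/6 mice and had 0 counts in every library. The level of H2-Eb1 mRNA thus does not stand for I-E here. All 3 classical chains rose about equally. H2-Aa, the I-A alpha chain, was at 83.6 and 75.8 CPM in the knockout libraries, against 36.4 and 30.9 CPM in the Rosa libraries. Its mean of 79.7 CPM ± 5.52 in knockout libraries and 33.6 CPM ± 3.94 in control libraries (SD, n = 2 each) gave 2.4-fold, a log2 fold change of 1.26 (standard error, SE, 0.11; adjusted p = 4.99e-06, edgeR). The knockout libraries lay far above both Rosa libraries. H2-Ab1, the I-A beta chain, was at 191 and 169.6 CPM in the knockout, against 87.1 and 83.55 CPM in the control. It rose 2.14-fold, with a log2 fold change of 1.10 (SE 0.10, adjusted p = 5.67e-06, edgeR). H2-Eb1 was at 72.04 and 64.4 CPM in the knockout, against 35.6 and 31.0 CPM in the control. Its log2 fold change was 1.05 (SE 0.11, 2.07-fold, adjusted p = 1.98e-05, edgeR). The estimates of H2-Ab1 and H2-Eb1 differ by less than either SE, and that of H2-Aa lies slightly above both.

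Cd74, the invariant chain on chromosome 18, moved with the chains that it escorts. It was at 195 and 180.1 CPM in the knockout libraries, against 103 and 86.15 CPM in the Rosa libraries. The log2 fold change was 1.01 (SE 0.11, 2.01-fold, adjusted p = 1.65e-05, edgeR). Within a library, Cd74 stood to the sum of H2-Aa, H2-Ab1 and H2-Eb1 at 0.563 and 0.581 in the knockout, against 0.646 and 0.592 in the control. These ratios of CPM, which are not corrected for length and are compared between libraries only, lie close together and do not overlap. H2-Aa stood to H2-Ab1 at 0.438 and 0.447 in the knockout, against 0.418 and 0.369 in the control. For such ratios an exact permutation test of 2 against 2 libraries cannot give a p under 0.333, so they are described without a test.

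H2-DM, which loads the peptides, went the other way in its alpha chain. H2-DMa was at 27.7 and 19.9 CPM in the knockout libraries, against 86.4 and 76.2 CPM in the Rosa libraries. Its mean was 23.8 CPM ± 5.52 in knockout libraries and 81.3 CPM ± 7.22 in control libraries (SD, n = 2 each), which is 29.7% of the control level in the fit. The log2 fold change of -1.75 (SE 0.15, adjusted p = 3.45e-06, edgeR) lay farthest from 0 of all 10. H2-DMb1, the more abundant of the beta chains, was at 57.1 and 53.1 CPM in the knockout, against 92.2 and 91.5 CPM in the control. It fell to 60.7% of the control level (log2 fold change -0.72, SE 0.10, adjusted p = 0.000117, edgeR). H2-DMb2, a second beta chain gene beside it, was at 8.36 and 7.14 CPM in the knockout, against 5.47 and 5.37 CPM in the control. It rose 1.45-fold (log2 fold change 0.54, SE 0.18, adjusted p = 0.0284, edgeR), but did not pass without knockout replicate 1 (0.39, adjusted p = 0.148), without Rosa replicate 1 (adjusted p = 0.102), without Rosa replicate 2 (adjusted p = 0.103) or in DESeq2 (adjusted p = 0.0527).

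The transcripts of H2-DMb1 and H2-DMb2, 1404 and 1424 bases long, are 94.4% identical over 1255 aligned bases, with an identical run of 221 bases. Reads can therefore be split between them, and the separate levels are uncertain. Summed, the beta chain genes were at 65.5 and 60.2 CPM in the knockout libraries, against 97.7 and 96.9 CPM in the Rosa libraries (log2 fold change -0.61, SE 0.10, adjusted p = 0.000381, edgeR), so the sum fell. H2-DMa stood to this sum at 0.423 and 0.33 in the knockout, against 0.884 and 0.786 in the control, a log2 difference of -1.15. H2-DMa also shares 360 exon bases with Brd2, a bromodomain gene on the opposite strand that rose 1.43-fold (225 and 159 CPM in the knockout and the control, adjusted p = 0.000551, edgeR). The labels name no strand-keeping step, so reads from the shared bases may not be told apart. Brd2 and H2-DMa moved in opposite directions.

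The H2-DO chains, which pair to inhibit H2-DM, split as well. H2-Oa, the alpha chain, was at 16.5 and 12.1 CPM in the knockout libraries, against 5.60 and 5.295 CPM in the Rosa libraries. It rose 2.67-fold (log2 fold change 1.42, SE 0.19, adjusted p = 0.00011, edgeR), and its knockout libraries differed more from each other than the control libraries did. H2-Ob, the beta chain, was at 8.15 and 9.08 CPM in the knockout, against 10.9 and 13.85 CPM in the control. It fell to 70.1% of the control level (log2 fold change -0.51, SE 0.17, adjusted p = 0.0259, edgeR), but did not pass without Rosa replicate 2 (-0.31, adjusted p = 0.298) or without knockout replicate 1 (-0.46, adjusted p = 0.0798). H2-Oa stood to H2-Ob at 2.02 and 1.33 in the knockout libraries, against 0.514 and 0.382 in the Rosa libraries, a log2 difference of 1.90. Per kilobase of transcript the ratio was 4.97 and 3.26 in the knockout, against 1.26 and 0.938 in the control. By this length H2-Oa stood clearly above H2-Ob in the knockout libraries and near it in the Rosa libraries. With all exons of a gene as its length, H2-Oa stood above H2-Ob in both group means. These were 10.2 and 1.6 CPM per kilobase in the knockout, and 3.87 and 2.3 in the control. H2-Oa shares 321 exon bases with BC051537 on the other strand, which had 0.279 CPM in the knockout, against 0.1145 CPM in the control.

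Ciita, on chromosome 16, encodes the coactivator that docks on the class II promoter factors and was the lowest of the 10 genes. It was at 4.24 and 5.81 CPM in the knockout libraries (305 and 359 counts), against 2.30 and 1.145 CPM in the Rosa libraries (151 and 80 counts). The log2 fold change of 1.56 (SE 0.31, adjusted p = 0.00159, edgeR), or 2.95-fold, was the highest of the 10 and also had the widest error, which reaches the estimates of H2-Oa and H2-Aa. It ran from 1.15 to 2.11 over the alternative settings, with an adjusted p of at most 0.0274. Ciita stood to the sum of H2-Aa and H2-Ab1 at 0.0154 and 0.0237 in the knockout, against 0.0186 and 0.01 in the control, and here the groups overlapped. The gene has separate promoters for dendritic cells, for B cells and for induction by interferon gamma, and a count per gene cannot tell them apart. Ciita shares 329 exon bases with Dexi on the other strand, which had 12.3 CPM in the knockout, against 13.4 CPM in the control, and did not pass (adjusted p = 0.562, edgeR). Dexi stood above Ciita in every library, and reads from the shared bases may not be told apart. Their part in the Ciita counts was not tested.

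Per kilobase of the principal transcript, the order of the levels was not the same in both groups. In the knockout, H2-Ab1 (149 ± 12.5 CPM per kilobase, SD, n = 2) and Cd74 (133 ± 7.67) came highest and lay close together, followed by H2-Aa (70.7 ± 4.9). H2-Eb1 (40.9 ± 3.24) and H2-DMb1 (39.3 ± 2.04) did not differ beyond their spread, nor did H2-DMa (14.3 ± 3.33) and H2-Oa (13.1 ± 2.87). H2-DMb2 (5.44 ± 0.605), H2-Ob (3.23 ± 0.247) and Ciita (0.837 ± 0.185) closed the order. In the control, H2-Ab1 (70.4 ± 2.05), Cd74 (67.0 ± 8.3) and H2-DMb1 (65.4 ± 0.359) lay close together. Cd74 did not differ from H2-Ab1 or H2-DMb1 beyond its spread. H2-Ab1 (71.8 and 68.9) lay slightly above H2-DMb1 (65.7 and 65.2) in both Rosa libraries. H2-DMa (49.0 ± 4.36) came next, above H2-Aa (29.8 ± 3.5) and H2-Eb1 (20.0 ± 1.93). H2-Oa (5.0 ± 0.195), H2-Ob (4.63 ± 0.786), H2-DMb2 (3.81 ± 0.0532) and Ciita (0.286 ± 0.136) were low, and H2-Oa and H2-Ob did not differ beyond their spread. By the length of the principal transcript, H2-DMa and H2-DMb1 thus stood among the classical chains in the control and below H2-Aa in the knockout. The order depends on the length used. With all exons of a gene as its length, Cd74 was highest in the knockout (112 CPM per kilobase, above H2-Ab1 at 70.2). In the control Cd74 (56.2) and H2-DMb1 (54.6) lay close together, above H2-Ab1 (33.2). By this length H2-DMb1 (32.8) stood above H2-Aa (21) in the knockout, while H2-DMa (6.9) still stood below H2-Aa.

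**Figure D2:**
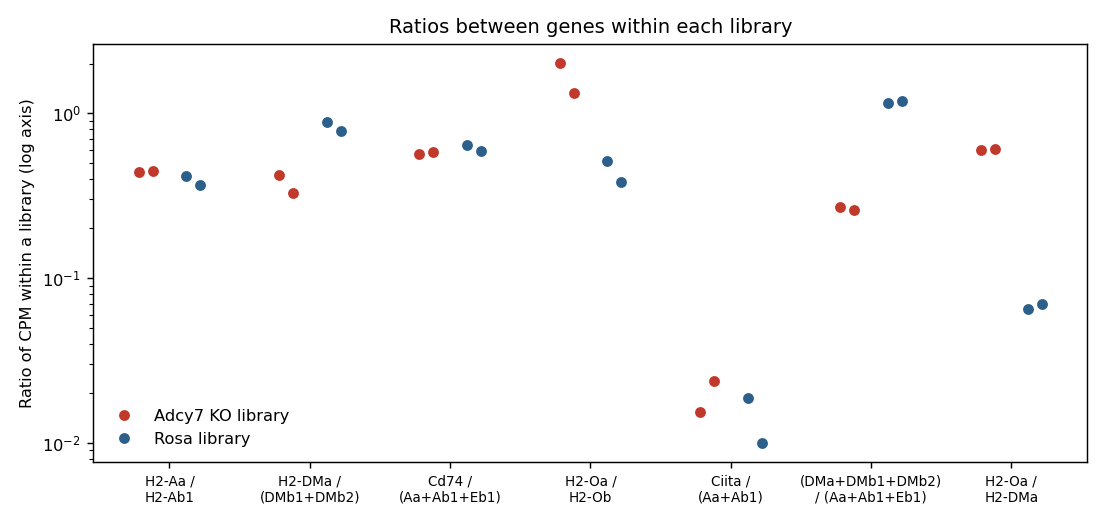
Ratio of CPM between genes within each library on a log axis, with a point for each library (Adcy7 knockout left of Rosa, n = 2 each). H2-Aa to H2-Ab1 and Cd74 to the classical chains lie close together, H2-DM to the classical chains lies lower in the knockout, and H2-Oa to H2-Ob and H2-Oa to H2-DMa lie higher.

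The plot of ratios holds 2 that were chosen after the values were seen. The H2-DM genes summed stood to the classical chains summed at 0.269 and 0.259 in the knockout libraries, against 1.16 and 1.19 in the Rosa libraries. H2-Oa stood to H2-DMa at 0.596 and 0.607 in the knockout, against 0.0648 and 0.0695 in the control, a log2 difference of 3.16. In both ratios the libraries of a group lie close together and the groups far apart.

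Of the 10 genes, 8 lie in the class II region of chromosome 17, and the direction changed along it. Read in the order of the annotation, H2-Oa and Brd2 rose, H2-DMa fell, H2-DMb2 rose and H2-DMb1 fell. The class I genes that sit among them did not rise. Psmb9, an immunoproteasome subunit, was at 40.8 CPM in the knockout, against 103 CPM in the control (log2 fold change -1.32, SE 0.11), and Tap1, a peptide transporter subunit, at 139 and 250 CPM (-0.83, SE 0.11). Psmb8 (-0.42, SE 0.10) fell too, Tap2 did not pass (-0.22, adjusted p = 0.0804, edgeR), and H2-Ob fell. Beyond H2-Ob, the 3 classical chains rose. Their neighbour H2-Eb2, a further beta chain gene, was at 1.96 and 2.85 CPM in the knockout libraries, against 0.167 and 0.215 CPM in the Rosa libraries, a 12.4-fold rise from a very low level (log2 fold change 3.64, SE 0.48, adjusted p = 0.000101, edgeR). H2-Ea-ps, the broken alpha chain gene of C57BL/6 mice, had 0 counts in all 4 libraries, as did H2-Pa and H2-Pb. A count of 0 allows up to 0.0898 CPM over the pooled knockout libraries and 0.0885 CPM over the pooled Rosa libraries.

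**Figure D3:**
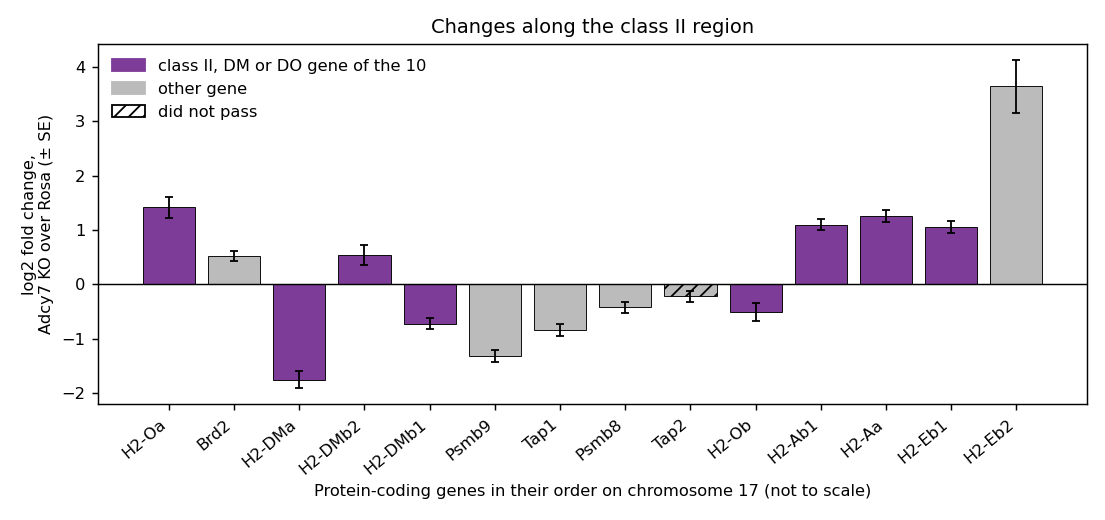
Log2 fold change (Adcy7 knockout over Rosa) with its SE for protein-coding genes in their order along the class II region of chromosome 17, not to scale. Rises lie at both ends, from H2-Oa to Brd2 and from H2-Ab1 to H2-Eb2, and most falls lie between them, where H2-DMb2 rose and Tap2 did not pass.

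The factors on which Ciita docks showed no common direction. Among 7 such genes, 1 rose and 2 fell while 4 did not pass, for a median log2 fold change of -0.02. With 25.0% of all tested genes higher and 24.6% lower, these counts alone say little. Rfx5 is an RFX subunit whose loss abolishes class II expression in human bare lymphocyte syndrome. It was at 7.08 and 8.89 CPM in the knockout libraries, against 12.8 and 14.9 CPM in the Rosa libraries (-0.79, SE 0.16, adjusted p = 0.00227, edgeR). Nfya, an NF-Y subunit, was at 46.4 and 48.9 CPM in the knockout, against 80.1 and 78.3 CPM in the control (-0.72, SE 0.10, adjusted p = 9.59e-05, edgeR). Both fell while most class II genes rose. Nfyc rose 1.27-fold (adjusted p = 0.0375, edgeR), but did not pass without the low-count filter (adjusted p = 0.0939), without knockout replicate 1 (0.31, adjusted p = 0.0772), without Rosa replicate 1 (0.22, adjusted p = 0.387) or without Rosa replicate 2 (0.46, adjusted p = 0.0551). Rfxap, Rfxank, Nfyb and Creb1 had log2 fold changes of -0.32, 0.24, 0.06 and -0.02 and did not pass, though Rfxap fell without knockout replicate 1 (adjusted p = 0.0276) and Rfxank rose without knockout replicate 2 (adjusted p = 0.0453).

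Of 13 tested genes of the interferon gamma route and of myeloid control of Ciita, 4 rose, 8 fell and 1 did not pass, with a median of -0.48. Ifngr1, the ligand-binding receptor chain, was at 46.0 and 48.9 CPM in the knockout libraries, against 191 and 186 CPM in the Rosa libraries (log2 fold change -1.97, SE 0.09). The kinase gene Jak2 went the other way, at 325 and 358 CPM in the knockout, against 49.1 and 48.3 CPM in the control, or 7.08-fold (adjusted p = 3.45e-09, edgeR). Jak1 (1.46-fold), Socs1, a feedback inhibitor of these kinases (2.06-fold), and Prdm1, a repressor of Ciita (1.52-fold, adjusted p = 0.029, edgeR), rose too. Irf1 (-0.48, SE 0.11), a factor that acts on the Ciita promoter, fell, as did Usf1 (-0.59), Irf2 (-0.99) and Ifngr2 (-0.26). The myeloid factors Irf8 (107 and 342 CPM in the knockout and the control) and Spi1 (362 and 691 CPM), which encodes PU.1, fell by 1.66 and 0.92 on the log2 scale. Irf4 did not pass (-0.05, SE 0.23). The calls of Prdm1 (without any of the 4 libraries, adjusted p = 0.0534 to 0.179), Ifngr2 (without knockout replicate 1, Rosa replicate 1 or Rosa replicate 2, 0.0554 to 0.268) and Irf1 (without Rosa replicate 1, 0.0972) did not hold with a library left out. Ifng itself had 21 counts in knockout replicate 1 and 0 in the other libraries, and was not tested. The 8 of 13 that fell compare with 24.6% of all tested genes. The part of these genes in the rise of Ciita was not tested.

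**Figure D4:**
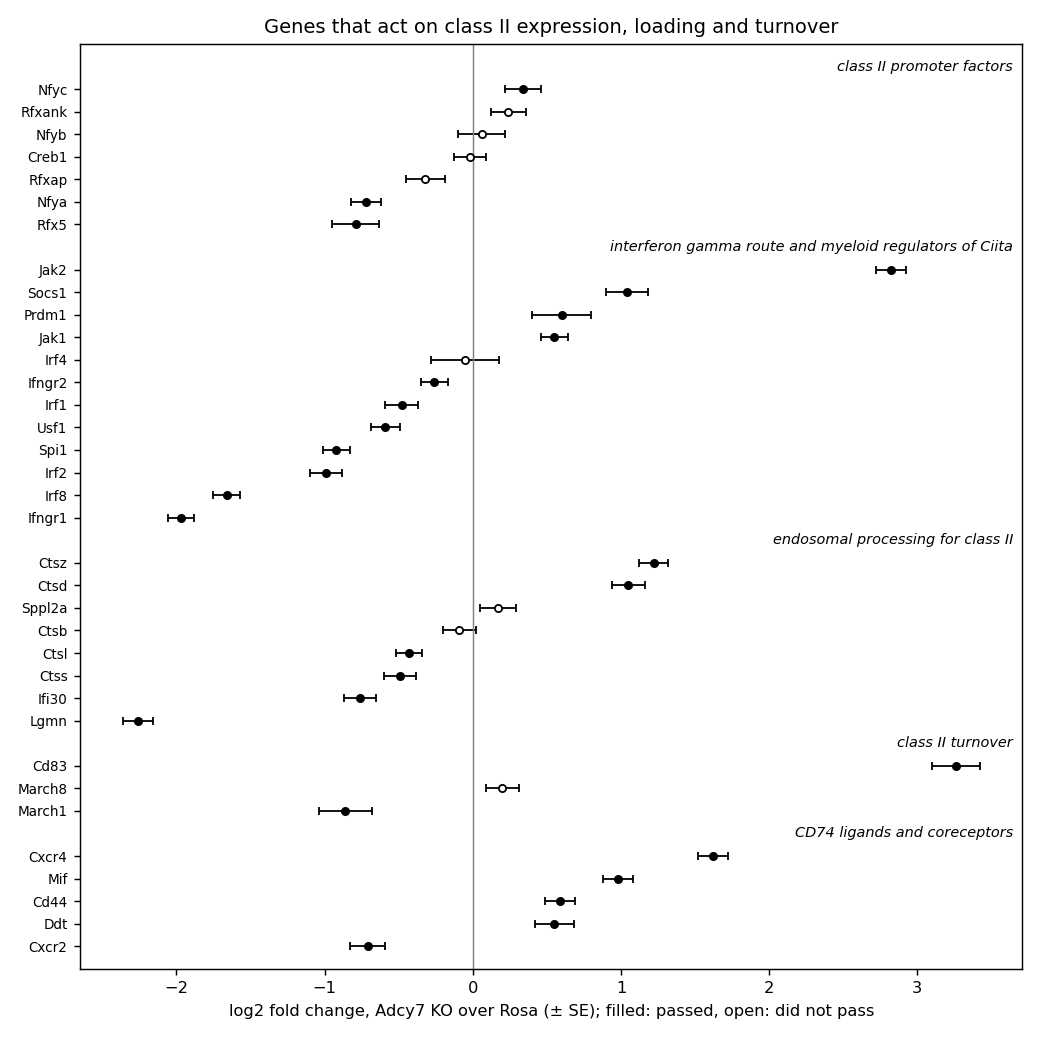
Log2 fold change (Adcy7 knockout over Rosa) with its SE for genes that act on class II expression, loading and turnover, in 5 lists. Filled points passed and open points did not. Jak2 and Cd83 lie farthest to the right, Lgmn and Ifngr1 farthest to the left.

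The endosomal enzymes of the pathway moved both ways. Among 8 genes, 2 rose and 4 fell while 2 did not pass, for a median of -0.26. Over all tested genes, 25.0% rose and 24.6% fell. Lgmn, the endopeptidase legumain, which can start the cutting of the invariant chain, was at 99.4 and 90.9 CPM in the knockout libraries, against 472 and 450.3 CPM in the Rosa libraries (-2.26, SE 0.10, adjusted p = 1.84e-08, edgeR). Ctss, whose product makes the last cut to CLIP in many antigen-presenting cells, was at 1074 CPM ± 159 in knockout libraries and 1523 CPM ± 20.2 in control libraries (SD, n = 2 each), a log2 fold change of -0.49 (SE 0.11). Ctsl (-0.43), a related cathepsin, and Ifi30 (-0.76), a thiol reductase that opens disulfide bonds of antigens, fell as well. Ctsd, an aspartic protease, rose 2.07-fold, and Ctsz, a carboxypeptidase, rose 2.33-fold. Ctsb (-0.09, SE 0.11) and Sppl2a (0.17, SE 0.12), whose product clears the stub of the invariant chain, did not pass, though Sppl2a rose without knockout replicate 1 (0.34, adjusted p = 0.00729).

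The genes of surface turnover and of the invariant chain's role as a receptor were measured too. Cd83, which protects surface class II from ubiquitination, was at 24.9 and 23.3 CPM in the knockout libraries, against 2.42 and 2.66 CPM in the Rosa libraries, a 9.58-fold rise (adjusted p = 5.71e-08, edgeR). March1, the ubiquitin ligase that sends class II to degradation, was at 9.16 and 14.3 CPM in the knockout, against 21.4 and 21.5 CPM in the control (-0.86, SE 0.18, adjusted p = 0.00198, edgeR). March8, a related ligase, did not pass (0.20, SE 0.11). Of 5 genes of CD74 ligands and coreceptors, 4 rose: the ligand Mif (690.3 and 629 CPM in the knockout, against 325 and 351 CPM in the control, 1.97-fold), its homologue Ddt (1.46-fold), the signalling partner Cd44 (1.51-fold) and the chemokine receptor Cxcr4 (3.07-fold). Cxcr2, another chemokine receptor that binds MIF, fell by 0.71 on the log2 scale (SE 0.12, adjusted p = 0.000636, edgeR). Ddt did not pass without Rosa replicate 2 (adjusted p = 0.0558).

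The class I route, which shows peptides from the cytosol to CD8+ T cells, is the nearest counterpart. Among its 11 genes, 2 rose and 5 fell while 4 did not pass, for a median of -0.22, against 7 up and 3 down with a median of 1.03 for the class II set. No test compared these lists, and over all tested genes 25.0% rose and 24.6% fell. The heavy chain H2-K1 rose 1.25-fold (adjusted p = 0.0138, edgeR) and Tapbp, the loading factor tapasin, 1.47-fold. H2-D1 (0.25, adjusted p = 0.0519, edgeR), B2m (0.18), Erap1 (-0.05) and Tap2 did not pass. These small changes turned on single libraries: H2-K1 did not pass without Rosa replicate 1 (adjusted p = 0.101) or 2 (0.202), while H2-D1 rose without knockout replicate 2 (0.0129) and in DESeq2 (0.0086), B2m rose without knockout replicate 1 (0.0144), and Tap2 fell without it (0.0335). Nlrc5, the class I counterpart of Ciita, was at 26.0 and 24.2 CPM in the knockout libraries, against 40.4 and 35.9 CPM in the Rosa libraries (-0.59, SE 0.11, adjusted p = 0.00141, edgeR). The related coactivators Nlrc5 and Ciita thus moved in opposite directions. Psmb10, an immunoproteasome subunit, fell with Psmb8, Psmb9 and Tap1 (-0.69, SE 0.11).

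Markers of other cells that carry class II moved in the same libraries. Of 13 tested B cell markers 10 rose, 2 fell and 1 did not pass, with a median of 3.22. The 14 listed summed to 514 and 469 CPM in the knockout libraries, against 458 and 426 CPM in the Rosa libraries, mostly from Cd37 (356 and 309 CPM in the knockout, against 282 and 255 CPM in the control) and Ighm (96.2 and 94.2 CPM, against 139 and 137 CPM). The antigen receptor subunit Cd79a was at 12.5 and 12.9 CPM in the knockout, against 0.897 and 1.34 CPM in the control. The B cell factor Pax5 was at 1.93 and 2.23 CPM in the knockout, against 0.122 and 0.114 CPM in the control. These defining B cell genes were low in CPM and higher in every knockout library. Cd79b and Ighm fell, and Cr2 had a count in knockout replicate 2 alone.

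Of 12 tested dendritic cell markers 6 rose, 4 fell and 2 did not pass, with a median of 1.36. The 14 listed summed to 98.1 and 94.0 CPM in the knockout libraries, against 34.0 and 29.2 CPM in the Rosa libraries, and Ccr7 (41.1 and 2.42 CPM in the knockout and the control) and Fscn1 (43.0 and 2.82 CPM), genes of mature dendritic cells, made up most of the knockout sum. Flt3 (1.80 and 0.704 CPM) and Zbtb46 (0.66 and 0.207 CPM) were low. Clec10a fell to 0.302 CPM in the knockout, against 12.7 CPM in the control, and Batf3 and Dpp4 fell too. Mgl2, the remaining gene that fell, had 0 counts in both knockout libraries, against 10 and 19 in the Rosa libraries. The median does not depend on the size fitted for Mgl2. Cd209a (8 and 4 counts in the Rosa libraries) and Siglech (0 and 13) also had 0 counts in both knockout libraries. With so few counts they were not tested. Of 12 macrophage markers 1 rose (Cd14), 10 fell and 1 did not pass (Cd68), with a median of -2.35, and the list summed to 22990 and 22790 CPM in the knockout libraries, against 58400 and 60230 CPM in the Rosa libraries. Lyz2, the lysozyme gene, carried most of these sums, with 16470 and 16440 CPM in the knockout, against 50360 and 52210 CPM in the control. The complement gene C1qa was at 0.0556 and 0 CPM in the knockout, against 76.5 and 66.9 CPM in the control.

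**Figure D5:**
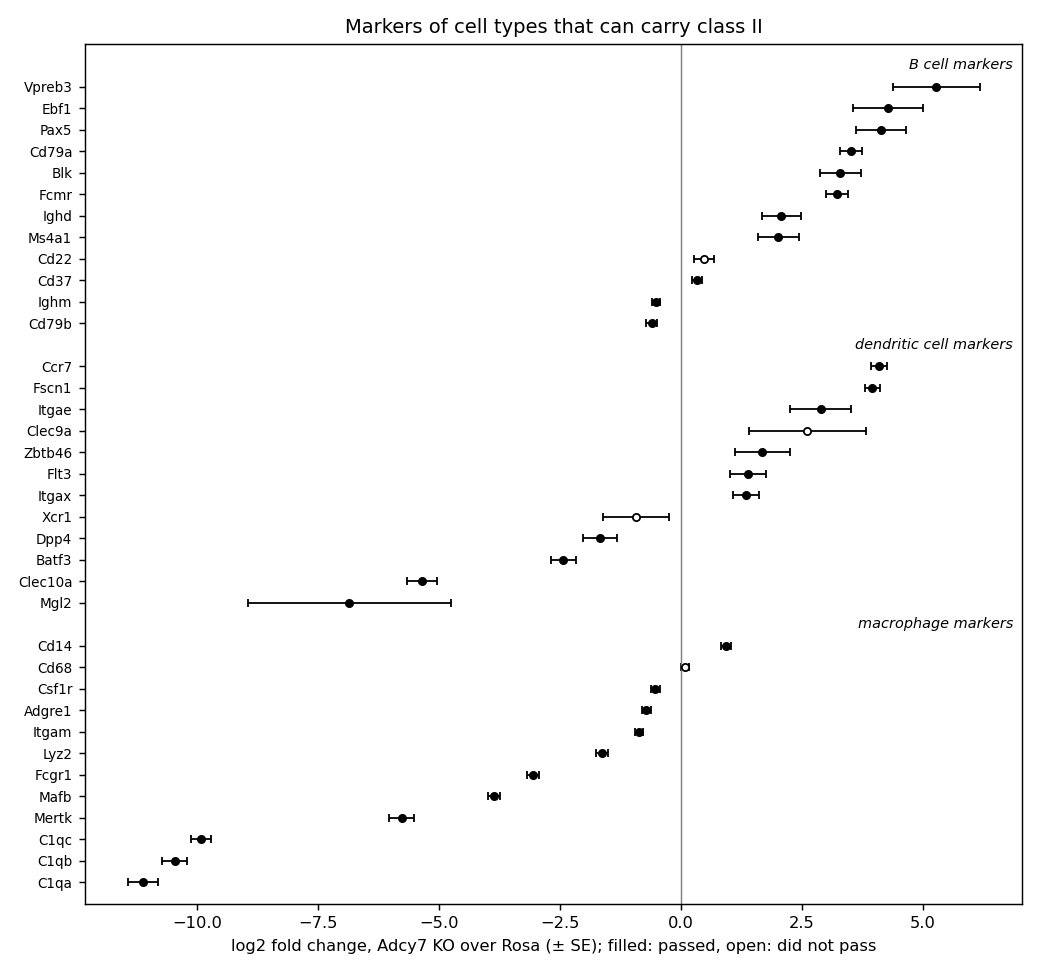
Log2 fold change (Adcy7 knockout over Rosa) with its SE for markers of B cells, dendritic cells and macrophages. Filled points passed and open points did not. Most B cell markers lie to the right of 0 and most macrophage markers to the left, with C1qa, C1qb and C1qc farthest. The value of Mgl2, at 0 counts in the knockout, depends on the prior count and is no bound.

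The pattern of the classical chains and Cd74 over the 4 libraries was not rare. Of 12194 other tested genes with a mean of at least 1 CPM, 337 had a profile of centred log2 CPM within a distance of 0.3 of their mean profile. Among the 5 nearest were Rrp9 (distance 0.0299), Ppard (0.0519), Tmem120a (0.0708) and Fgfbp3 (0.0748), which rose 2.14-fold to 2.31-fold. Rrp9 was at 31.0 and 28.6 CPM in the knockout libraries, against 14.9 and 12.9 CPM in the Rosa libraries. With 2 libraries in each group, such a profile holds little more than the size of the rise and the spread within a group.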

How the data were processed

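Poly(A) RNA of 4 libraries was sequenced, per the labels' protocols. The authors deposited estimated counts per Ensembl gene as whole numbers (expected counts). The submitters' processing notes name HISAT2, StringTie, fastp, edgeR and the build GRCm39. Versions and settings: not given in the sources used here. Of deposited counts from 1 to 40, 30.54% to 32.17% were multiples of 4. The share would be 25% if all counts in this range were equally common, and the share for real low counts was not computed. A step of 4 counts per fragment is thus an assumption. Limits for a count of 0 were set at 3 assumed fragments of 4 counts (12 counts) and cover counting error only. The p-values and CPM were computed here and not by the authors. Knockout columns are headed KO3, and what the digit stands for is not given. Symbols came from GENCODE on GRCm38 (55141 of 55401 IDs), as did transcript lengths, gene order and overlaps, and of 105 listed symbols 102 matched.

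After filterByExpr 15832 genes were left. TMM scaling and the test used edgeR 4.0.16 in R 4.3.3 (glmQLFit and glmQLFTest, current method, 2 residual degrees of freedom, common dispersion 0.0238, Benjamini-Hochberg adjustment, threshold 0.05, two-sided). The procedure was tested on simulated data. DESeq2 1.42.0, other scaling, no filter, counts divided by 4, a replicate block and leaving out each library were alternatives. The older edgeR method, the summed H2-DMb genes and 2 ratios were added after the data were seen. Libraries of a group differed beyond sampling noise (chi-square per degree of freedom 10.6 in the knockout and 6.24 in the control). These values were computed on counts divided by 4, the assumed counts per fragment. The 10 genes, the lists and the rule for named genes (all members, Adcy7, any listed gene, and the 5 nearest profiles; log2 CPM with a prior count of 2) were chosen with earlier results of these data known. Of the genes this rule took, 3 are counted in the text but not reported here by name, and the plots leave them out.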

Additional observations from a re-analysis of the deposited data

How the results depend on the processing

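Over 10 settings H2-Aa, H2-Ab1, H2-Eb1, Cd74, H2-DMa, H2-DMb1, H2-Oa and Ciita kept their direction and passed in each. H2-DMb2 kept its direction but did not pass in DESeq2 (0.54, adjusted p = 0.0527), without a low-count filter (0.53, adjusted p = 0.0611) and without 3 of the libraries in turn (0.39 to 0.67 over all 4). H2-Ob did not pass without a filter (-0.52, adjusted p = 0.0814), without knockout replicate 1 or without Rosa replicate 2 (-0.70 to -0.31 over all 4 libraries left out). The cause was not tested. All 10 passed with the older edgeR method and with counts divided by 4. The number of promoter factors that rose was 1, but 0 without a filter and 0 to 2 with a library left out, and that of class I genes that rose was 2, but 1 without either Rosa library and 3 in DESeq2, with the older edgeR method, with counts divided by 4 and without either knockout library.

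Among genes that did not pass, the sign turned with a library left out for Nfyb (-0.09 to 0.22), Irf4 (-0.44 to 0.28), Ctsb (-0.20 to 0.03), Sppl2a (-0.01 to 0.34) and Erap1 (-0.24 to 0.14). The replicate numbers are not said to pair libraries, and deviations of same-numbered libraries correlated at 0.0148. With the replicate number as a block all 10 genes passed (Ciita 1.56, H2-DMa -1.77), as did 3932 higher and 3911 lower genes of all tested. The median log2 fold change of all genes stayed between 0 and 0.05. With 2 libraries a group and 80 to 359 counts for Ciita, its size is the least certain.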
